A study of Mus musculus with 9 samples.

Results

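The genes described here encode 40 proteins that build ribosomes in the nucleolus. They were listed by their known function, at a time when earlier results of these data were known. All 40 were found among the 18755 genes of the deposited counts by their Entrez identifiers, and all 40 were among the 13966 genes that passed the filter on low counts. Primary tumors were raised from 1000000 cells of 4T1, a mouse mammary carcinoma line that spreads to distant organs, placed in a mammary fat pad of female BALB/c mice aged 6 to 10 weeks. From day 15 after injection, the mice of 6 tumors received BI 853520, an inhibitor of the focal adhesion kinase FAK, at 50 mg/kg for 5 days, and those of 3 tumors received 0.5% Natrosol, the vehicle, alone. The BALB/c hosts have an intact immune system, so that a tumor piece holds host cells beside the 4T1 cells, and each tumor gave 1 library of messenger RNA. The labels do not tie the tumors to single mice by number, and p-values measure the spread between these tumors. Library totals over genes ran from 21727879 to 33850245 in the vehicle-treated tumors (replicates 1 to 3) and from 16931607 to 22349873 in the BI-treated tumors (replicates 4 to 9), and the smallest count of a member in any tumor was 276.

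Ribosomes are assembled in steps. RNA polymerase I transcribes the ribosomal RNA precursor in the nucleolus, small nucleolar ribonucleoproteins (snoRNPs) guide its methylation (box C/D) and pseudouridylation (box H/ACA), and large processing complexes cut it and fold it into the precursors of the small 40S and the large 60S subunit. The demand for new ribosomes is high in growing and dividing cells, and enlarged nucleoli are a long-known feature of carcinoma cells. Messenger RNA of the assembly proteins was measured here, not ribosomal RNA, and not the rate of assembly.

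Of the 40 members, 15 fell and 0 rose after BI treatment. A gene is said to fall or rise where edgeR's quasi-likelihood test gave an adjusted p (Benjamini-Hochberg, over all genes tested) no higher than 0.05. Over all genes tested, 14.1% fell and 14.6% rose by the same rule. The members that fell kept between 59.9% and 88.1% of the mean expression of vehicle-treated tumors, with a median of 82.0%. The log2 fold change (BI minus vehicle) was below 0 in 36 members and its median was -0.18, against 50.5% of all genes tested and a median of -0.0037. In 15 members every BI-treated tumor lay below every vehicle-treated tumor, and in 0 members every one lay above, where 14.0% and 14.1% of all genes tested did so. At an unadjusted p of at most 0.05, 21 members fell and 0 rose, where 2829 of the 13966 genes tested fell and 2858 rose.

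These differences were small. At the cutoffs of the study's methods (unadjusted p no higher than 0.05 together with a change of about 1.5 times or more), Npm1 alone of the 40 members fell and 0 rose, where 3.57% of all genes tested fell and 9.59% rose. Without vehicle replicate 3, 8 members fell, and the share of all genes tested that fell was then 8.3%. With each of the other tumors left out in turn, at least 10 members fell, and the shares of all genes in those fits are not given here.

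**Figure D1:**
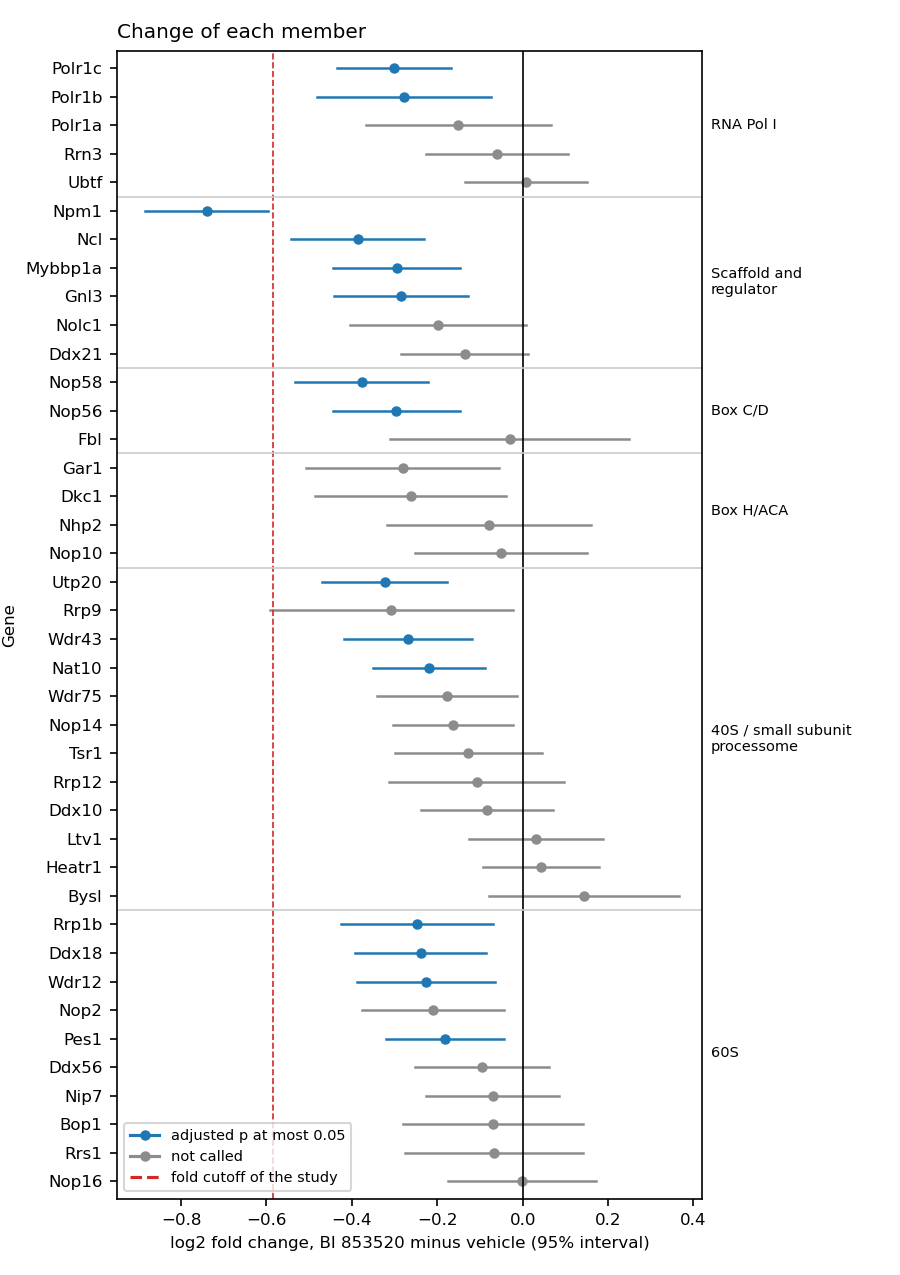
The log2 fold change of each member (BI 853520 minus vehicle) is plotted as a point with its 95% interval, grouped by role, with blue for the 15 members that fell. Npm1 at -0.74 is the only member past the dashed line at the fold cutoff of the study, and the 4 members to the right of 0 have intervals that include 0.

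The make-up of the tumor pieces moved with the treatment as well. Of 16 leukocyte markers, 12 rose and 0 fell, and their summed CPM (counts per 1000000 counts, TMM-normalized) was 1090 to 1379 with vehicle against 1740 to 2470 with BI. Of 7 neutrophil markers tested, 3 fell and 0 rose, with sums of 526 to 738 CPM and of 218 to 372 CPM. The 8 fibroblast markers summed to between 1991 and 3420 CPM and to between 2638 and 5852 CPM, with 2 of them rising, the 6 endothelial markers to between 163 and 190 CPM and to between 187 and 266 CPM, with 2 rising, and the 5 adipocyte markers to between 33.0 and 55.0 CPM and to between 50.9 and 252 CPM, with 0 called. The 10 epithelial markers summed to between 966 and 1190 CPM and to between 759 and 967 CPM, and Krt8 and Krt18, the 2 that fell, made up 96.6% of that sum with vehicle. The other 8 did not pass and lay on both sides of 0, from Krt14 at -0.85 to Epcam at 1.06 and Cldn3 at 1.36 on the log2 scale, and 4 of them (Krt5, Krt14, Cldn3 and Cldn7) averaged under 1 CPM with vehicle. The median log2 fold change of the 10 was -0.05. The 6 skeletal muscle markers were low, at 6.37 to 18.9 CPM and 5.07 to 15.0 CPM in sum. Every marker in these lists had more than 3 counts in at least 1 tumor. In such bulk samples, fewer cells of a type and less RNA per cell cannot be told apart, and the part of the make-up in the results on the members was not tested.

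The largest difference was that of Npm1 (Entrez gene 18148), which encodes nucleophosmin, an abundant nucleolar chaperone of histones and ribosomal proteins. In mm9 the gene spans 33052287 to 33063206 of chromosome 11 (minus strand). Npm1 expression was 570, 628 and 540 CPM in the vehicle-treated tumors, and 317 (lowest), 353 (median) and 365 CPM (highest) in the BI-treated tumors. From here on, 3 values of a member with vehicle are those of replicates 1 to 3. The 3 values set against them are the lowest, median and highest of the 6 BI-treated tumors. The groups were far apart, since the highest BI-treated tumor had 175.4 CPM less than the lowest vehicle-treated tumor. The means were 579 ± 44.7 CPM (SD, n = 3) and 347 ± 17.7 CPM (SD, n = 6), a log2 fold change of -0.74 (SE 0.0658, 95% interval -0.88 to -0.60, edgeR adjusted p = 3.19e-05). The exact permutation test over the 84 divisions of the 9 tumors gave p = 0.0238 (two-sided), the smallest value it can give. Every member whose groups do not overlap has this same value, among them Nolc1 and Nop14, which did not fall by the edgeR rule. Leaving out any 1 tumor kept the log2 fold change of Npm1 between -0.79 and -0.68.

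Ncl (Entrez gene 17975) encodes nucleolin, an RNA-binding protein of the nucleolus that binds the ribosomal RNA precursor. It spans 88241294 to 88256030 of chromosome 1 (minus strand) and had the most reads of all members. Ncl had 876, 889 and 908 CPM in vehicle-treated tumors and 598, 692 and 745 CPM as lowest, median and highest values in BI-treated tumors, so that the groups did not overlap. The means were 891 ± 16.3 CPM (SD, n = 3) and 681 ± 51.0 CPM (SD, n = 6), a log2 fold change of -0.39 (SE 0.0717, adjusted p = 0.00218 from the same edgeR test; exact permutation p = 0.0238, two-sided). Npm1 and Ncl together made up 35.1% of the summed CPM of all members in vehicle-treated tumors. Their sum was 1470 ± 40.5 CPM with vehicle and 1028 ± 66.7 CPM with BI, 69.9% of the former. The other 38 members summed to 2714 ± 53.1 CPM and 2400 ± 146 CPM, 88.4% of the former.

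Among the other scaffold proteins and regulators of the nucleolus, Mybbp1a and Gnl3 also fell. Mybbp1a encodes a Myb-binding protein of the nucleolus that regulates transcription of ribosomal DNA. Its values were 182, 165 and 172 CPM in vehicle-treated tumors and 125, 140 and 155 CPM (lowest, median, highest) in BI-treated tumors, without overlap (log2 fold change -0.29, SE 0.0681, adjusted p = 0.00764). Gnl3 encodes nucleostemin, a GTPase that moves between nucleolus and nucleoplasm. It had 128, 132 and 128 CPM in vehicle-treated tumors and 95.9, 104 and 122 CPM in BI-treated tumors, again without overlap (log2 fold change -0.29, SE 0.0718, adjusted p = 0.0118). Nolc1, which encodes the snoRNP chaperone Nopp140, had 85.8, 88.3 and 91.1 CPM against 59.9, 79.2 and 84.9 CPM. The groups of Nolc1 did not overlap, but its adjusted p was 0.136 at a log2 fold change of -0.20 (95% interval -0.40 to 0.01). The helicase gene Ddx21 differed by -0.14 on the log2 scale (interval -0.28 to 0.01, adjusted p = 0.155), with 4 of 6 BI-treated tumors below every vehicle-treated tumor.

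**Figure D2:**
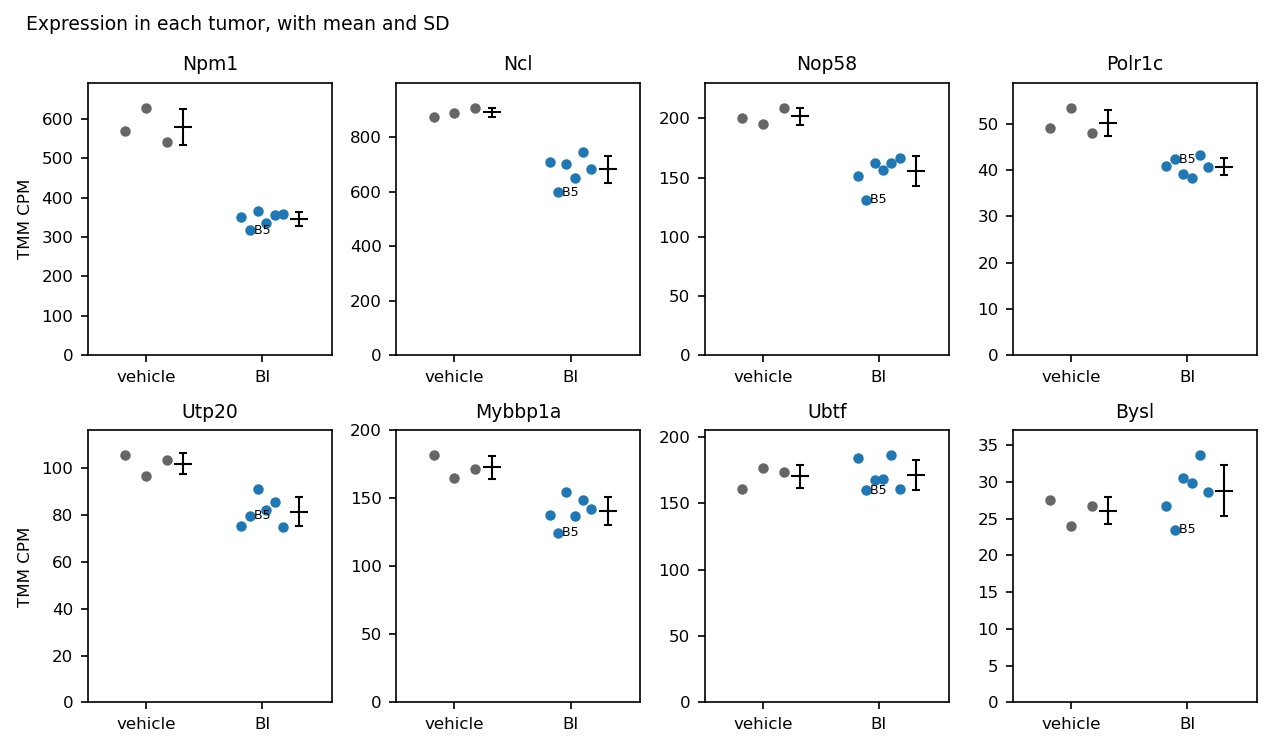
Expression in CPM (vertical axes, from 0) is shown for each tumor of 8 members, with the mean and SD of the 3 vehicle-treated (grey) and 6 BI-treated tumors (blue) beside the points, and with BI replicate 5 marked B5. Npm1, Ncl, Nop58, Polr1c, Utp20 and Mybbp1a have no overlap between the groups, while Ubtf and Bysl overlap.

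In the box C/D snoRNP, which methylates ribosomal RNA, 2 of 3 members fell. Nop58 and Nop56 encode the paired scaffold proteins of this particle. Nop58 (Entrez gene 55989; chromosome 1, 59741853 to 59768968, plus strand) had 200, 196 and 209 CPM in vehicle-treated tumors and 132, 160 and 167 CPM (lowest, median, highest) in BI-treated tumors. The log2 fold change was -0.38 (SE 0.0713, adjusted p = 0.00245; exact permutation p = 0.0238, two-sided), and no BI-treated tumor reached the vehicle-treated tumors. Nop56 had 108, 111 and 114 CPM against 82.0, 89.0 and 103 CPM, also without overlap (log2 fold change -0.30, SE 0.0678, adjusted p = 0.00735). Fbl encodes fibrillarin, the methyltransferase of the same particle. It had 13.5, 19.5 and 20.1 CPM in vehicle-treated tumors and 14.4, 17.98 and 18.9 CPM in BI-treated tumors, and all BI-treated tumors lay within the range of the vehicle-treated ones. Its log2 fold change was -0.03 with a 95% interval from -0.31 to 0.25 (adjusted p = 0.881).

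The low values of Fbl stand beside a property of its sequence. Reads that aligned to more than 1 place were dropped by the authors, and 84.9% of the 50-base words in the exons of Fbl occur at more than 1 place in mm9. The share was 63.3% for Ddx18, 28.3% for Npm1, 24.0% for Pes1, 18.6% for Nop56 and 12.96% for Rrs1, and at most 9.55% for the other 34 members. Which parts of the transcripts of these 6 genes were counted was not measured, and their levels are uncertain. Of the 34 members at or below 10%, 11 fell.

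In the box H/ACA snoRNP, which converts uridine to pseudouridine, 0 of 4 members passed an adjusted p of 0.05, while 2 had an unadjusted p of at most 0.05 with edgeR's quasi-likelihood test. Gar1 and Dkc1 had log2 fold changes of -0.28 (95% interval -0.51 to -0.05, adjusted p = 0.061) and -0.26 (interval -0.49 to -0.04, adjusted p = 0.0744). Dkc1, which encodes the pseudouridine synthase dyskerin, had 61.6, 48.6 and 58.7 CPM with vehicle against 37.6, 48.4 and 52.9 CPM with BI, with 3 of 6 BI-treated tumors below all vehicle-treated ones. Gar1 passed with limma-voom, and passed the edgeR test without BI replicate 9, and Dkc1 passed without vehicle replicate 2. Nhp2 and Nop10 differed by -0.08 (interval -0.32 to 0.16) and -0.05 (interval -0.25 to 0.15). Nop10, the member of this particle with the highest level per length, had 49.9, 56.0 and 44.9 CPM against 40.7, 49.7 and 53.5 CPM, with the groups overlapping.

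RNA polymerase I itself was represented by 5 members, of which 2 fell. Polr1c encodes a subunit that RNA polymerases I and III share. Polr1c (Entrez gene 20016; chromosome 17, 46380869 to 46385003, minus strand) had 49.0, 53.5 and 48.0 CPM in vehicle-treated tumors and 38.2, 40.7 and 43.1 CPM in BI-treated tumors, without overlap (log2 fold change -0.30, SE 0.0615, adjusted p = 0.00386). Polr1b encodes the second-largest subunit. It had 29.8, 26.3 and 28.8 CPM against 19.6, 23.6 and 26.4 CPM, and 5 of 6 BI-treated tumors lay below every vehicle-treated tumor (log2 fold change -0.28, SE 0.0933, adjusted p = 0.0431). The call of Polr1b was lost without vehicle replicate 1, 2 or 3 or BI replicate 4, 5, 7 or 9, with an adjusted p of up to 0.148. The gene of the largest subunit, Polr1a, differed by -0.15 (95% interval -0.37 to 0.07, adjusted p = 0.278).

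Among the members, the initiation factors of RNA polymerase I, Ubtf and Rrn3, did not pass the test. Ubtf encodes the upstream binding factor, which binds along active ribosomal DNA, and had 161, 177 and 173 CPM with vehicle against 160, 168 and 186 CPM with BI. The vehicle-treated tumors lay within the range of the BI-treated ones, of which 2 lay below and 2 above every vehicle-treated tumor. The 95% interval of the log2 fold change of 0.01 ran from -0.13 to 0.15 (adjusted p = 0.936). Rrn3, the factor that brings the polymerase to the promoter, differed by -0.06 (interval -0.23 to 0.11, adjusted p = 0.586).

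Of 12 members of the small subunit processome and of later 40S maturation, 3 fell. Utp20 (Entrez gene 70683; chromosome 10, 88209352 to 88289559, minus strand), a large component of the processome, had 106, 96.98 and 103 CPM in vehicle-treated tumors and 75.1, 81.0 and 91.2 CPM in BI-treated tumors. No values overlapped, and the log2 fold change was -0.32 (SE 0.0674, adjusted p = 0.00432). Wdr43, of the subcomplex that binds the nascent ribosomal RNA precursor, had 126, 126 and 137 CPM against 95.6, 110 and 115 CPM (log2 fold change -0.27, SE 0.0688, adjusted p = 0.013). Nat10 encodes the acetyltransferase of small subunit ribosomal RNA and had 53.2, 55.7 and 56.8 CPM against 44.2, 47.0 and 51.7 CPM (log2 fold change -0.22, SE 0.0602, adjusted p = 0.0181). Neither Wdr43 nor Nat10 had overlapping groups. Without vehicle replicate 3 the adjusted p was 0.0721 for Wdr43, and Nat10 reached at most 0.0809 without vehicle replicate 2 or 3.

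The other 9 members of this group did not pass, and they lay on both sides of 0. Nop14, Wdr75 and Rrp9 had unadjusted p-values of at most 0.05 in edgeR's quasi-likelihood test, with log2 fold changes of -0.16, -0.18 and -0.31 (adjusted p = 0.0767, 0.0987 and 0.0988). All 6 BI-treated tumors lay below the vehicle-treated tumors for Nop14, and 4 of 6 for Wdr75 and for Rrp9, a component of the U3 snoRNP. Tsr1 (-0.13), Rrp12 (-0.11) and Ddx10 (-0.08) had intervals that included 0. Bysl, Heatr1 and Ltv1 had the largest values above 0 among the members. Bysl, which acts late in 40S maturation, had 27.6, 24.0 and 26.7 CPM with vehicle against 23.5, 29.3 and 33.7 CPM with BI, with 4 of 6 BI-treated tumors above every vehicle-treated tumor and 1 below (log2 fold change 0.14, 95% interval -0.08 to 0.37, adjusted p = 0.319). Heatr1 had 81.8, 72.4 and 82.2 CPM against 77.1, 81.0 and 86.1 CPM (log2 fold change 0.04, interval -0.09 to 0.18). Ltv1, an export adaptor of the 40S precursor, had 39.3, 40.04 and 37.9 CPM against 35.7, 39.9 and 43.6 CPM (0.03, interval -0.13 to 0.19).

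Of 10 members of 60S maturation, 4 fell, each with a small difference. The complex of Pes1, Bop1 and Wdr12 processes the large subunit precursor. Pes1 had 85.6, 94.4 and 83.9 CPM in vehicle-treated tumors and 70.7, 78.3 and 83.6 CPM in BI-treated tumors, and the ranges came within 0.236 CPM of each other (log2 fold change -0.18, SE 0.0631, adjusted p = 0.0488). Wdr12 had 42.5, 39.5 and 41.4 CPM against 31.4, 36.2 and 38.1 CPM (log2 fold change -0.23, SE 0.0739, adjusted p = 0.0387). Bop1 had 55.8, 43.5 and 48.8 CPM against 39.2, 47.8 and 52.9 CPM, which overlap (-0.07, 95% interval -0.28 to 0.14, adjusted p = 0.626). The RNA helicase gene Ddx18 had 30.9, 31.4 and 32.03 CPM against 24.6, 26.2 and 29.5 CPM (log2 fold change -0.24, SE 0.0705, adjusted p = 0.0251). Rrp1b had 45.4, 40.1 and 52.7 CPM against 36.9, 38.7 and 41.97 CPM, with 5 of 6 BI-treated tumors below every vehicle-treated tumor (log2 fold change -0.25, SE 0.0817, adjusted p = 0.0396).

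The 4 calls in 60S maturation each depended on single tumors. The call of Pes1 was lost without any 1 of the tumors other than BI replicate 6 (adjusted p of up to 0.209), and under 6 of the 8 alternative settings. That of Rrp1b was lost without vehicle replicate 1 or 3 or BI replicate 4, 5, 7, 8 or 9 (up to 0.236), that of Wdr12 without vehicle replicate 1, 2 or 3 or BI replicate 5, 7 or 9 (up to 0.130), and that of Ddx18 without vehicle replicate 1, 2 or 3 or BI replicate 7 (up to 0.0893). Nop2, the methyltransferase of large subunit ribosomal RNA, had an adjusted p of 0.0575 at a log2 fold change of -0.21, and passed with DESeq2, with limma-voom and without BI replicate 8. Ddx56 (-0.10), Nip7 (-0.07), Rrs1 (-0.07) and Nop16 (-0.00085) had intervals that included 0, and that of Nop16 ran from -0.17 to 0.17.

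**Figure D3:**
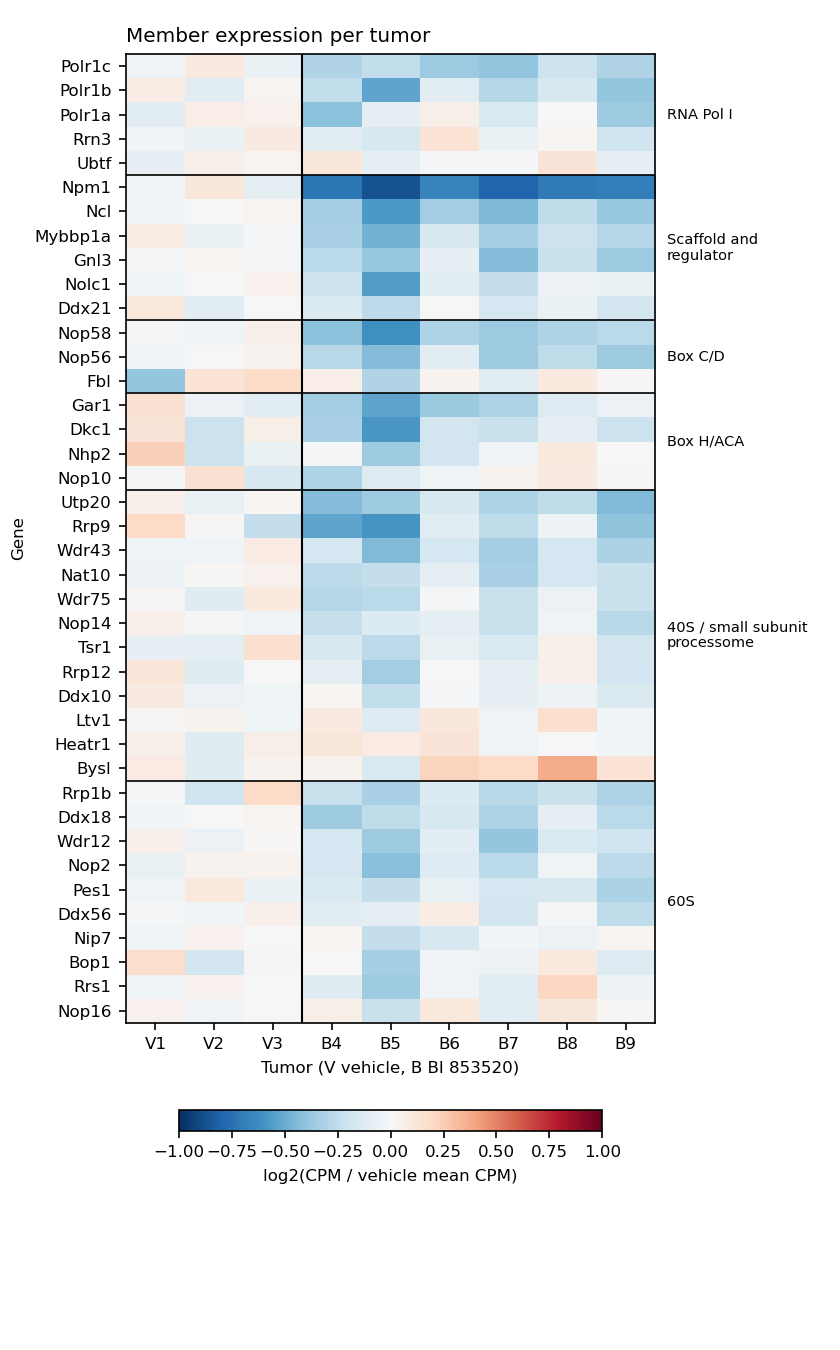
Each cell shows the log2 ratio of a member's CPM in 1 tumor to its mean CPM in vehicle-treated tumors, with genes in rows by role, tumors in columns (V1 to V3 vehicle, B4 to B9 BI 853520) and blue for values below the vehicle mean. The row of Npm1 is the darkest, and B5 is the darkest column, with the lowest of all 9 values in 25 of 40 members.

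Many members varied together between the BI-treated tumors. The level of all 40 members in a tumor, taken as the median of log2 CPM minus each gene's mean over the 9 tumors, was 0.14, 0.09 and 0.14 in the vehicle-treated tumors. It was lowest in BI replicate 5 (-0.20), lay between -0.09 and -0.07 in BI replicates 4, 7 and 9, and was highest in BI replicates 6 (0.04) and 8 (0.06). All BI-treated tumors lay below all vehicle-treated tumors, with means of -0.06 ± 0.0966 (SD, n = 6) and 0.13 ± 0.0285 (SD, n = 3). Single roles did not all follow the same order. The box H/ACA level was -0.07 in BI replicate 6 and 0.06 in BI replicate 9. In vehicle replicates 1, 2 and 3 it was 0.31, 0.05 and 0.04, while the RNA polymerase I level was 0.01, 0.08 and 0.14. In 25 of the 40 members BI replicate 5 had the lowest of all 9 values, as it had in 16.7% of all genes tested. Among the 6 BI-treated tumors alone, it was lowest in 26 members and in 23.4% of all genes tested, and the highest value was that of BI replicate 6 or 8 in 36 members and in 31.4% of all genes tested. The make-up of these tumors differed as well. BI replicate 5 had the highest leukocyte marker sum of all tumors (2470 CPM) and the lowest sums of proliferation markers (1553 CPM) and of the MYC family (211 CPM). BI replicate 8, with the highest member level of the BI-treated tumors, had their lowest leukocyte marker sum (1740 CPM) and their highest MYC family sum (261 CPM), while BI replicate 6 had 2188 CPM of leukocyte markers, 1823 CPM of proliferation markers and 236 CPM of the MYC family. BI replicates 4, 7 and 9 had 2326, 2114 and 2104 CPM of leukocyte markers and 2138, 1989 and 2331 CPM of proliferation markers. Their MYC family sums, which include Max, were 259, 225 and 242 CPM. The part of these differences in the member level was not tested.

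**Figure D4:**
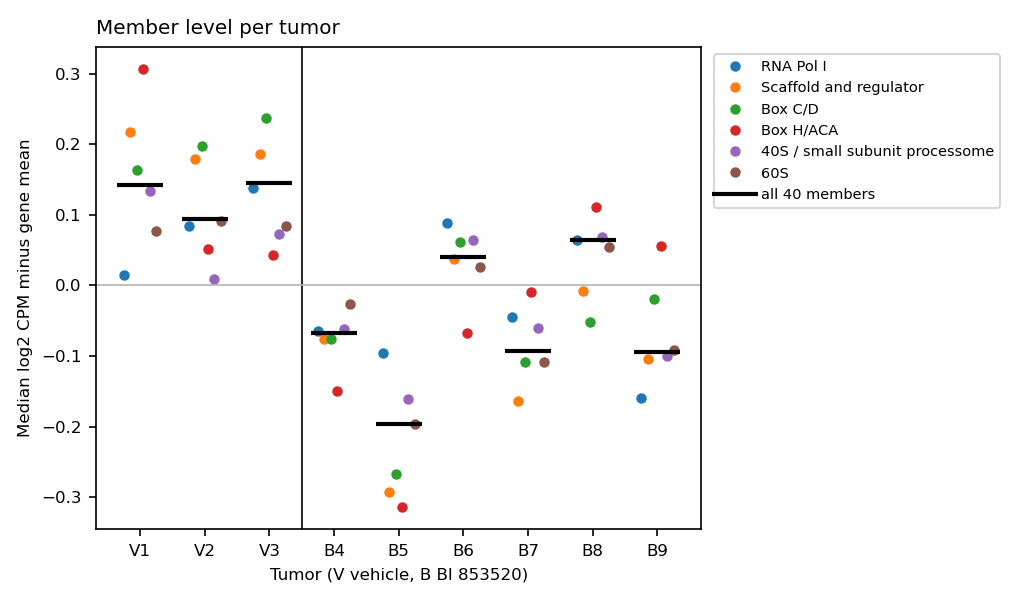
The level of each role in each tumor (median of log2 CPM minus the gene mean over 9 tumors) is shown as colored points and that of all 40 members as a black bar. The bars of the 6 BI-treated tumors (B4 to B9) lie between -0.20 and 0.06, below those of the vehicle-treated tumors (V1 to V3), and the groups overlap for RNA polymerase I, for box H/ACA and for 40S maturation.

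Levels between genes were compared per length, as CPM per kilobase of the deposited gene length. In vehicle-treated tumors Npm1 came first with 337 CPM per kilobase, followed by Ncl (108), Nop58 (102), Nop10 (72.3) and Gnl3 (68.6), and Rrp12 came last with 5.09. The deposited length of Ncl is 8257 bases, and its place in this order depends on that length. After BI treatment Npm1 had 202, Ncl 82.5 and Nop58 78.6 CPM per kilobase. Of the 10 members with the highest level, 7 fell, and 2, 2 and 4 fell in the following groups of 10. Across the 40 members, Spearman's correlation of the level per length with the log2 fold change was -0.31, and across all 13966 genes tested it was -0.25, where genes share libraries and are not independent replicates.

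Several members carry genes of small nucleolar RNAs inside their own span on the same strand. In the GENCODE annotation of mm9 this was so for 7 of the 40 members: Ncl, Gnl3, Nop56, Nop58, Dkc1, Wdr43 and Tsr1. Of these 7 host genes 5 fell, and Dkc1 and Tsr1 did not pass the test. Of the other 33 members 10 fell. Among the 11882 protein-coding genes tested with a single annotation entry, 215 were hosts and 25.6% of these fell, while 14.2% of the genes without such RNAs fell. The order was the opposite among 75 cytosolic ribosomal protein genes, where 6 of 29 hosts fell (20.7%) and 30.4% of the others. The annotated entries, of which some may name the same RNA, were 3 for Ncl (among them Snora75 and Snord82), 3 each for Gnl3 and Wdr43, 4 each for Nop56 and Nop58, 2 for Tsr1 and 1 for Dkc1, and these RNAs were not measured here.

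The exons of 13 members overlap those of another annotated gene, all of them on the other strand. Among the members that fell this holds for Gnl3 (with Glt8d1), Mybbp1a (with Spns2), Nop56 (with Idh3b), Pes1 (with 4930556J24Rik) and Wdr12 (with Carf). The libraries kept the strand, but whether counting used it is not given in the sources used here. If it did not, reads from both genes of a pair cannot be told apart where the exons overlap.

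The promoters were searched for the E-box CACGTG, the sequence that MYC with its partner MAX and other factors of the same fold recognize. A RefSeq promoter of 300 bases (250 before and 50 after the annotated start, build GRCm38.p6) was found for 35 members, while Rrs1, Bop1, Npm1, Rrp12 and Fbl had no entry. The motif, which reads the same on both strands, was present in 8 of the 35 promoters (22.9%), in 11.5% of the promoters of genes tested and in 8.09% of all genes in the table. It was present in 4 of 14 members that fell and in 4 of 21 that did not pass, and over all genes tested that fell it was present in 11.9%. The E-boxes are shown in capitals with up to 12 bases on each side, 5′ to 3′ on the strand of the gene, to let the matches and their flanks be compared between the members that fell (first 4) and the others. A window is shorter where it meets the end of the 300 bases.
Mybbp1a (chr11:72441355-72441376, plus strand): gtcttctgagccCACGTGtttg
Pes1 (chr11:3963965-3963994, plus strand): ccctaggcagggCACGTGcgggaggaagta
Utp20 (chr10:88826765-88826789, minus strand): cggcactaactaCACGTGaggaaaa
Wdr43 (chr17:71616220-71616249, plus strand): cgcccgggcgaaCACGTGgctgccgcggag
Ltv1 (chr10:13193092-13193121, minus strand): gccctgtggaccCACGTGtggagctgccgg
Nop2 (chr6:125131811-125131840, plus strand): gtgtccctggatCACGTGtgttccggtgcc
Tsr1 (chr11:74898092-74898121, plus strand): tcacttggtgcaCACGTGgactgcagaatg
Rrn3, upstream (chr16:13780472-13780501, plus strand): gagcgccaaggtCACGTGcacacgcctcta
Rrn3, downstream (chr16:13780639-13780668, plus strand): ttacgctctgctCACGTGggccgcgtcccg

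In the 4 members that fell, and in Ltv1 and Tsr1, the E-box began within 40 bases after the annotated start. The 2 E-boxes of Rrn3 began 215 and 48 bases before the start and that of Nop2 60 bases before it. A match is a run of letters, and binding was not measured. Myc itself, a known activator of ribosome assembly genes, averaged 158 ± 2.53 CPM (SD, n = 3) with vehicle and 111 ± 14.7 CPM (SD, n = 6) with BI, without overlap (log2 fold change -0.51, SE 0.0953, adjusted p = 0.00229). Max had a log2 fold change of 0.11 (adjusted p = 0.142), and Mycn did not pass the filter on low counts.

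Other genes of ribosome assembly were taken from 5 lists of 118 genes in all, of which 117 were tested. Of these, 24 fell and 2 rose (20.5% and 1.71%), with a median log2 fold change of -0.12. Among 11 further genes of RNA polymerase I and its factors, 3 fell and 1 rose. Taf1d, of the promoter selectivity factor SL1, averaged 78.7 ± 2.81 CPM with vehicle and 59.8 ± 5.91 CPM with BI (log2 fold change -0.39, adjusted p = 0.00369). Polr1d (-0.36) and Cd3eap (-0.37), both subunits of the polymerase, fell as well, while Taf1c, another subunit of SL1, rose from 7.45 ± 0.242 to 9.57 ± 0.814 CPM (0.36, adjusted p = 0.0206).

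In 40 further genes of the small subunit processome and 40S maturation, 7 fell and 1 rose, with Imp3 (-0.38, adjusted p = 0.00161), Utp15 (-0.30) and Riok2 (-0.26) having the smallest p among the falls and Utp23 (0.27, adjusted p = 0.0362) being the rise. Emg1, the most abundant per length, did not pass (-0.15, adjusted p = 0.176). In 45 further genes of 60S maturation, 7 fell and 0 rose, with the smallest p for Nvl (-0.29, adjusted p = 0.00306), Rsl1d1 (-0.26) and Rrp15 (-0.31), and Rrp1, the most abundant per length, fell as well (-0.16, adjusted p = 0.0437). The snoRNP assembly factors had 4 of 9 genes falling, among them the helicase gene Ruvbl2 (118 ± 6.24 to 91.3 ± 8.97 CPM, -0.36, adjusted p = 0.00574), Znhit6 and Naf1. Of 12 genes of the RNA exosome, which trims ribosomal RNA precursors, 3 fell, namely Exosc10 (-0.31, adjusted p = 0.00251), Dis3 (-0.38) and Exosc7 (-0.28). All lists had medians below 0, between -0.15 for the assembly factors and -0.11.

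The proteins of the cytosolic ribosome itself were given by 76 genes, of which 21 fell and 0 rose (27.6%), with a median log2 fold change of -0.23. The smallest p belonged to Rpl10a (-0.40, adjusted p = 0.00327), Rpl27a (-0.34) and Rpl15 (-0.33). These genes have many processed copies in the mouse genome. In 61 of the 75 with an annotation, more than 10% of the 50-base words of the exons occur at more than 1 place. Which parts of their transcripts were counted was not measured, and their levels are uncertain as well. Rplp1, the gene of this list with the highest level per length, had 671 ± 126 CPM and 566 ± 70.4 CPM and did not pass (-0.25, adjusted p = 0.163).

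**Figure D5:**
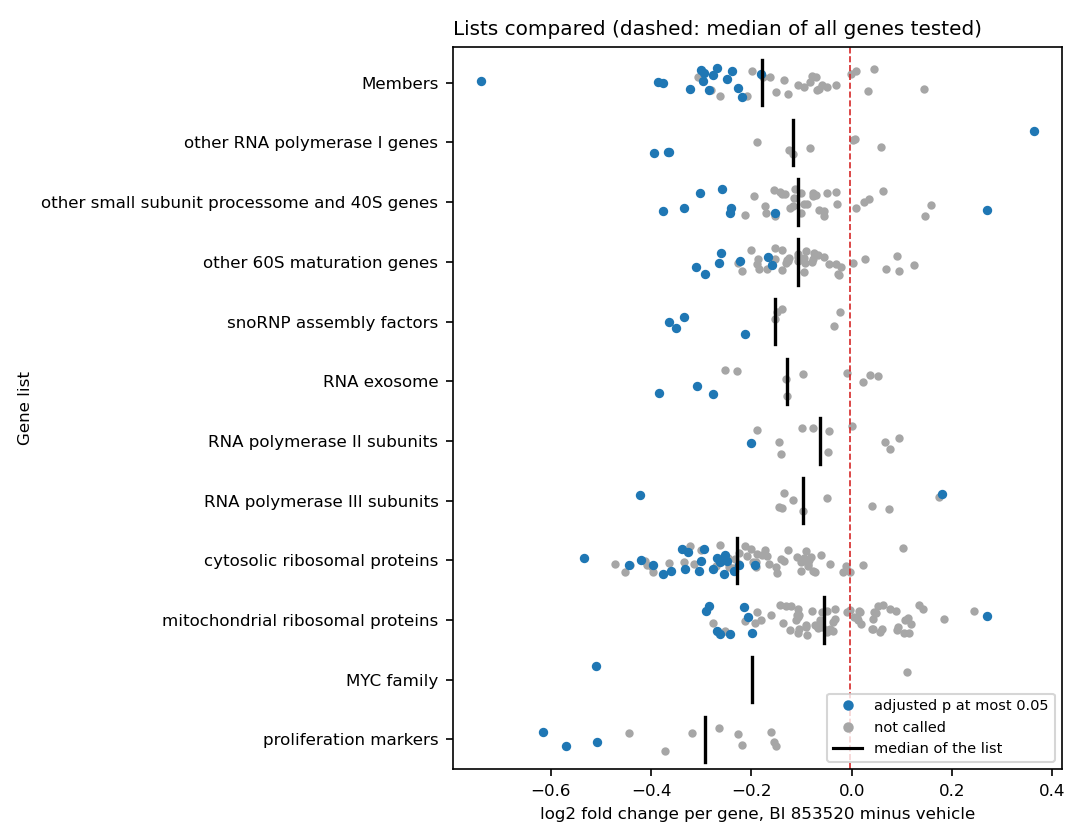
Each point is the log2 fold change of 1 gene (BI 853520 minus vehicle) in the members and in 11 other lists, colored where the gene fell or rose, with a black bar at the median of the list and a dashed line at the median of all genes tested (-0.0037). The medians are -0.18 for the members, -0.23 for cytosolic and -0.05 for mitochondrial ribosomal proteins.

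Proliferation markers were set beside the members. All 12 had log2 fold changes below 0 (median -0.29), and 3 fell: Top2a (1022 ± 154 to 667 ± 90.4 CPM, -0.62, adjusted p = 0.00322), Bub1 (-0.57) and Ccnb1 (-0.51). The spread between vehicle-treated tumors was wider for Top2a, with an SD of 154 CPM at a mean of 1022, than for Ncl, with an SD of 16.3 CPM at a mean of 891. Ncl does not stand for all members in this. Fbl had an SD of 3.63 CPM at a mean of 17.7, and Nhp2 had 8.28 CPM at a mean of 50.1. The summed CPM of the 12 markers was 2195 to 3017 with vehicle and 1553 to 2331 with BI, with 4 of 6 BI-treated tumors below. The summed CPM of the 40 members was 4170 to 4199 and 3103 to 3669, with all 6 below. All 6 were also below for RNA polymerase II subunits (796 to 814 and 702 to 768 CPM) and RNA polymerase III subunits. The same held for cytosolic ribosomal proteins and each other list of ribosome assembly genes. For mitochondrial ribosomal proteins 3 of 6 were below.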

How the data were processed

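Paired-end libraries of messenger RNA (TruSeq Stranded) from 9 tumors were analysed, which the study kept for the quality of their RNA. The authors aligned the reads to mm9 with STAR, keeping unique hits, and counted with QuasR the reads starting in any exon of each RefSeq gene. The deposited values are raw counts, 1 library per tumor, with gene lengths in bases. No batch is named. Total counts ranged from 16931607 to 33850245 (median 20972840), and the precision of each value is given by the spread between tumors. The smallest mean chi-square per gene between tumors of a group was 8.7, above counting error, so no library was counted as a duplicate.

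Genes were tested with edgeR 4.0.16 (R 4.3.3): TMM, filterByExpr (minimum count 10, minimum total 15) and glmQLFit with glmQLFTest, with the group as the only term, with Benjamini-Hochberg adjustment over all 13966 genes tested. No p was adjusted over the members alone and no set test was run. CPM were scaled by TMM, and a prior count of 2 entered log2 CPM. Single genes were also compared by an exact two-sided permutation test over 84 divisions. The script was tested on simulated data. Symbols came from RefSeq (18700 of 18755 genes), positions from GENCODE on mm9, and promoters from RefSeq on GRCm38.p6. Of the listed genes, Noc2l and Ly6g had no row by that symbol. Single members are given with the value of each vehicle-treated tumor and the lowest, median and highest value of the BI-treated tumors. By the rule for named genes, this was done for the 3 members with the smallest p in each direction. It was also done for the member with the highest level per length in each role. The other members given in this way (those that fell and some of the same complexes) were chosen after their values were seen. From other lists, the 3 genes with the smallest p in each direction among those passing and the most abundant per length are named. The members and the lists were chosen with earlier results of these data known. Protein sequences were not used here. Alternatives were RLE, library size, 2 other filters, edgeR's likelihood ratio test, DESeq2 1.42.0, limma-voom 3.58.1, thinned counts, a prior count of 0.5 and leaving out each tumor.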

Additional observations from a re-analysis of the deposited data

How the results depend on the processing

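Of the 15 members that fell, 8 (Npm1, Ncl, Nop58, Nop56, Gnl3, Mybbp1a, Polr1c and Utp20) passed an adjusted p of 0.05 under each of the 8 other settings and with each tumor left out, and 12 passed under each of the 8 other settings. The number that fell was 13 to 16 under the other settings and 8 to 15 with each tumor left out in turn (8 without vehicle replicate 3). Over all genes tested, 14.1% fell with all tumors and 8.3% without vehicle replicate 3. The shares of all genes in the remaining fits are not given here. The median log2 fold change over members stayed between -0.18 and -0.17 under the settings and between -0.21 and -0.16 with tumors left out. In all settings 0 members rose, and Npm1 alone passed the cutoffs of the study. None of the 15 changed sign. Nop16, at -0.00085, turned to 0.0026 with RLE, 0.0014 with library size, 0.012 with a filter of 1 CPM in 3 tumors and 0.0026 with DESeq2. With tumors left out, the log2 fold change ranged from -0.0231 to 0.0397 for Nop16, from -0.152 to 0.0250 for Bop1, from -0.189 to 0.0715 for Fbl, from -0.0139 to 0.0749 for Heatr1, from -0.175 to 0.0565 for Nhp2, from -0.128 to 0.0340 for Nop10 and from -0.0322 to 0.0357 for Ubtf. Except for the changes by construction (fewer tumors, fewer counts), the cause was not tested. The comparison rests on 3 vehicle-treated tumors, and whether their number limits the calls of the members near the threshold was not tested.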

Other observations

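Genes listed for RNA polymerases II and III and for the mitochondrial ribosome were measured in the same tumors. Subunits that these polymerases share with RNA polymerase I were not set apart. Of 12 subunits of RNA polymerase II, 1 fell (Polr2e, log2 fold change -0.20, edgeR adjusted p = 0.0265) and 0 rose, with a median of -0.06, and Polr2f, the most abundant per length, had -0.04 (adjusted p = 0.704). Of 11 subunits of RNA polymerase III, 1 fell and 1 rose: Polr3g changed from 16.0 ± 1.45 to 11.98 ± 1.19 CPM (-0.42, adjusted p = 0.00975), and Polr3e from 37.8 ± 2.34 to 42.9 ± 1.78 CPM (0.18, adjusted p = 0.049), while Polr3c, the most abundant per length, had 0.04 (adjusted p = 0.673). Of 78 mitochondrial ribosomal protein genes, 8 fell and 1 rose (10.3% and 1.28%), with a median log2 fold change of -0.05. Mrpl9 (-0.26, adjusted p = 0.0085), Mrps30 (-0.29) and Mrpl45 (-0.21) had the smallest p among the falls, and Mrpl41 (0.27, adjusted p = 0.0189) was the rise, and Mrpl13, the most abundant per length, had -0.19 (adjusted p = 0.104). Whether these lists differ from the nucleolar genes was not tested.

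Outside the nucleolar genes and the ribosomal proteins, 179 genes tested carry small nucleolar RNA genes inside their span, and 24.6% of them fell, against 14.1% of the other genes outside those lists. Among the cytosolic ribosomal protein genes the shares were 20.7% of hosts and 30.4% of the others.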
